A study of Mus musculus with 26 samples.

Results

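A set of 10 genes of glucose breakdown and of the response to low oxygen was followed across the series. They are the oxygen-sensing enzyme Egln3, the glucose carrier Slc2a1, the glycolytic enzymes Hk2, Pfkfb3, Pgk1 and Ldha, the lactate carrier Slc16a3, and 3 further genes known to respond to low oxygen, Ndrg1, Bnip3 and Vegfa. They were picked by name from the 55385 gene identifiers of the count tables, with the change of vehicle-treated organoids between day 1 and day 3 already known, in which Slc16a3 had the largest increase of the 10. Other earlier results of the series were also known. All 10 were found in both tables, and all 10 passed the filter on low counts in both. The change in vehicle is therefore described below without a test.

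The samples were bulk RNA libraries of mouse intestinal organoids, strain C57BL/6, which are miniature epithelial structures grown from isolated crypts in Matrigel. The medium of every group held EGF, Noggin, R-spondin, N-acetyl-L-cysteine, CHIR-99021, Y-27632, B27 and N2. The groups were AA (arachidonic acid, a fatty acid, 25 µM) for 1, 3 or 6 days, PGE2 (prostaglandin E2, a lipid made from arachidonic acid, 50 nM) for 1 or 3 days, and vehicle for 1, 3 or 6 days. Each group of days 1 and 3 had 3 libraries and each group of day 6 had 4. The treatment protocol names PGE2, whereas the design text names 6,16-dimethyl PGE2, and which of them was used is not given. The labels do not say whether the replicates came from separate cultures or mice, so each p-value measures the spread between these libraries alone, which may be technical. AA and PGE2 were used at different doses, and no PGE2 group of day 6 was analysed here.

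Glycolysis splits glucose into pyruvate in the cytosol. Glucose enters through carriers such as Slc2a1 (GLUT1), is trapped by hexokinase (Hk2), and is committed at the phosphofructokinase step, whose activator is made by Pfkfb3. Pgk1 is an ATP-yielding enzyme of the pathway, Ldha turns pyruvate into lactate, and Slc16a3 (MCT4) carries lactate out of the cell. When oxygen is scarce, the transcription factor HIF is no longer marked for breakdown by the prolyl hydroxylases, of which Egln3 (PHD3) is one, and it activates these genes. Other known targets are Ndrg1, a stress-responsive gene linked to differentiation, Bnip3, a mitochondrial outer-membrane protein of mitophagy, and Vegfa, a growth factor for blood vessels. The intestinal epithelium is known for a steep oxygen gradient between the crypt base and the lumen.

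Promoters of 4 members with contrasting levels are shown because HIF binds DNA with the core letters ACGTG or GCGTG. RefSeq (build GRCm38.p6) gave at least 1 window, covering 250 bases before and 50 after the transcription start, for 9 of the 10 genes and 12 windows in all; Ndrg1 had none in the table. The 250 bases before the start are printed for 4 genes, 5′ to 3′, with every ACGTG on either strand (read as CACGT where it lies on the other strand) in capitals. CACGTG holds the motif on both strands.
Slc16a3 (chr11:120948817-120949066, plus strand): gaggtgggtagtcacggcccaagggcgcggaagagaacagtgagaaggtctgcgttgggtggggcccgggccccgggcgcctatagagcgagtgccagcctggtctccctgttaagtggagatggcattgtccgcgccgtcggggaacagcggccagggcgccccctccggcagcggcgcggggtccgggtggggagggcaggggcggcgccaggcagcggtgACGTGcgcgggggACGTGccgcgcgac
Egln3 (chr12:54203875-54204124, minus strand): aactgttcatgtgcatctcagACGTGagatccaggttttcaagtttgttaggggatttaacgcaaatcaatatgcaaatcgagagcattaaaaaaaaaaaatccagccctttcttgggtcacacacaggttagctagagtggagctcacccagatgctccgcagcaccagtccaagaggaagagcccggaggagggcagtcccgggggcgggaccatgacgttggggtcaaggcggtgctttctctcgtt
Bnip3 (chr7:138909507-138909756, minus strand): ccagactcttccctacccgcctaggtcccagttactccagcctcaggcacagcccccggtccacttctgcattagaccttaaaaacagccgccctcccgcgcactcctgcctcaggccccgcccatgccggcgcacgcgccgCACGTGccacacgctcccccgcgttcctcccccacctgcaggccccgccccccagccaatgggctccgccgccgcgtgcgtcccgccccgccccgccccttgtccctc
Vegfa (chr17:46032378-46032627, minus strand): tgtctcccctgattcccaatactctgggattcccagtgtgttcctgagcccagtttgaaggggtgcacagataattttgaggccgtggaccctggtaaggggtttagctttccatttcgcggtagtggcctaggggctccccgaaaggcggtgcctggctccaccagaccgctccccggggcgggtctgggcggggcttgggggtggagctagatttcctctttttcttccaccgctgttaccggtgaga
Slc16a3 held 2 copies close to the start, Egln3 held 1 far from it, Bnip3 held the overlapping pair within 1 CACGTG, and Vegfa held none in this window. Over the whole 300-base windows, the first window held ACGTG in 8 of 9 genes and any window did in 9 of 9, with 10 of 12 windows in all. GCGTG was in the first window of 3 of 9 genes and either motif in that of 8. Of all 32851 promoters of that length in the table, 19.6% held ACGTG, 32.4% held GCGTG and 43.8% held either. The members' windows were 54.7% to 73.3% G and C, and the share was not matched on base composition. A match describes the letters in the window and nothing else.

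The table of days 1 and 3 held 10088285 to 14615719 counts per library and the table of day 6 held 16141385 to 19762827. Epithelial markers were detected in full (9 of 9 in every group), with a summed level of 5124 to 14370 CPM (counts scaled to the effective size of each library) per library. At day 1 the sum was 7381 to 8241 CPM in vehicle, 11123 to 11511 CPM in AA and 13702 to 14370 CPM in PGE2. At day 3 it was 5854 to 6467, 8520 to 9618 and 10724 to 11025 CPM, in that order. At day 6 the groups overlapped (5124 to 5769 CPM in vehicle and 5615 to 5898 CPM in AA). Summed markers of fibroblasts reached 1.64 to 8.74 CPM and those of immune cells 6.99 to 18.9 CPM. The immune sum at day 1 was 6.99 to 9.14 CPM in vehicle, 11.5 to 13.4 CPM in AA and 12.4 to 14.6 CPM in PGE2. On day 3 it was 10.2 to 11.0, 12.8 to 16.7 and 17.2 to 18.9 CPM, in that order. Endothelial markers summed to 34.7 to 39.2 CPM in PGE2 at day 3 and 6.62 to 7.58 CPM in AA at day 3, against 0.375 to 0.973 CPM in vehicle at day 3, and Tek alone averaged 35.1 CPM in PGE2 and 5.72 CPM in AA at day 3, with Emcn and Kdr at 0 in every group other than PGE2 at day 3. At day 1 the endothelial sum was 2.11 to 2.49 CPM in AA and 9.62 to 11.1 CPM in PGE2, against 0.615 to 1.56 CPM in vehicle, so that it also moved with the responses of day 1. The part of these marker levels in the results was not tested. In bulk RNA, fewer cells of a type and less RNA per cell cannot be told apart.

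Some libraries stood apart in all 10 genes together. Vehicle replicate 1 at day 3 was the highest of its group for 10 of 10 members, whereas it was the highest for 29.5% of all genes tested. PGE2 replicate 2 at day 3 was likewise the highest for 10 of 10 (32.1% of all genes), and vehicle replicate 3 at day 6 was the highest for 10 of 10 (20.6%). AA replicate 2 at day 6 was the lowest for 10 of 10 (30.1%). At day 6, vehicle replicate 4 was the highest for 39.4% and the lowest for 35.1% of all genes. Calls that rest on these libraries are given below with and without them.

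In vehicle, every one of the 10 genes had a higher level at day 3 than at day 1, and the order of the increases set Slc16a3 and Bnip3 apart from the rest. Slc16a3 had 99.6, 71.2 and 70.1 CPM at day 3, against 2.36, 1.84 and 1.09 CPM at day 1, a ratio of means of 45.5. Bnip3 had 61.6, 45.6 and 46.9 CPM at day 3, against 4.5, 4.07 and 4.84 CPM at day 1, a ratio of 11.5. The ratio was 5.63 for Egln3, 4.53 for Pfkfb3 and 3.21 for Ndrg1, and it lay between 1.44 (Ldha) and 1.81 (Slc2a1) for the other 5. The groups of all 10 genes did not overlap, as they did not, with day 3 higher, for 23.8% of all genes tested; the genes were chosen on this contrast, so nothing is read from that count. Slc16a3 had only 14 to 33 counts per library at day 1, so that its ratio carries a large counting error. The median log2 change of the 10 genes was 1.27, and without vehicle replicate 1 of day 3 it was 1.17.

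**Figure D1:**
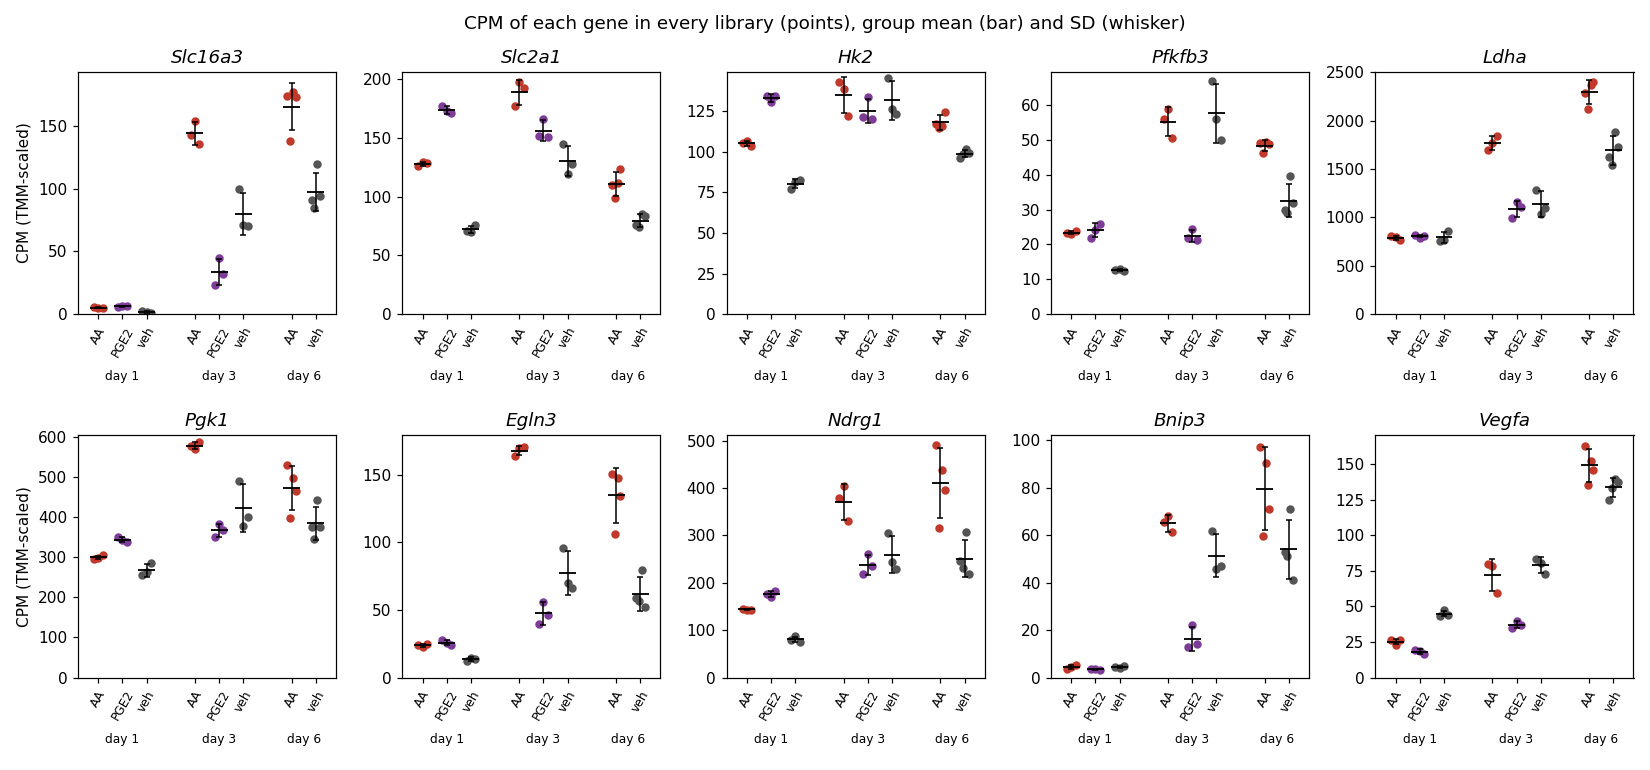
CPM (TMM-scaled, linear axes from 0) of the 10 genes in every library, with AA in red, PGE2 in purple and vehicle in grey at days 1, 3 and 6; bars are group means and whiskers are SDs (n = 3 at days 1 and 3, n = 4 at day 6). Slc16a3 and Bnip3 lie near 0 in every treatment at day 1 and stand at 80.3 and 51.4 CPM in vehicle at day 3, while Vegfa is lower in AA and PGE2 than in vehicle at day 1. Days 1 and 3 come from a different table than day 6, so levels are comparable within each table.

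Against vehicle at day 1, most of the 10 genes were higher in both treatments, with Vegfa lower. In AA, 7 of 10 rose and 1 fell, while 19.5% of all genes tested rose and 22.2% fell. In PGE2, 7 of 10 rose and 1 fell, while 27% of all genes rose and 28.9% fell. The median log2 fold change of the 10 was 0.59 against -0.03 over all genes tested in AA, and 0.82 against -0.02 over all genes tested in PGE2. Both comparisons use the same 3 vehicle libraries, which also enter the contrast that chose the genes. At day 3 the treatments parted. In AA, 6 of 10 rose and none fell (background 21.2% and 20.1%), whereas in PGE2 only Slc2a1 rose and 6 of 10 fell (background 28.9% and 30.1%). The vehicle libraries of day 3 are shared by both comparisons and by the contrast that chose the genes. At day 6, in a separate set of 8 libraries, 9 of 10 rose in AA and none fell (background 15.3% and 15.5%). With scaling to total counts alone, the split over all genes in AA at day 3 was 2459 higher and 3903 lower, beside 3143 and 2986 as reported; the 6 calls of the members held.

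**Figure D2:**
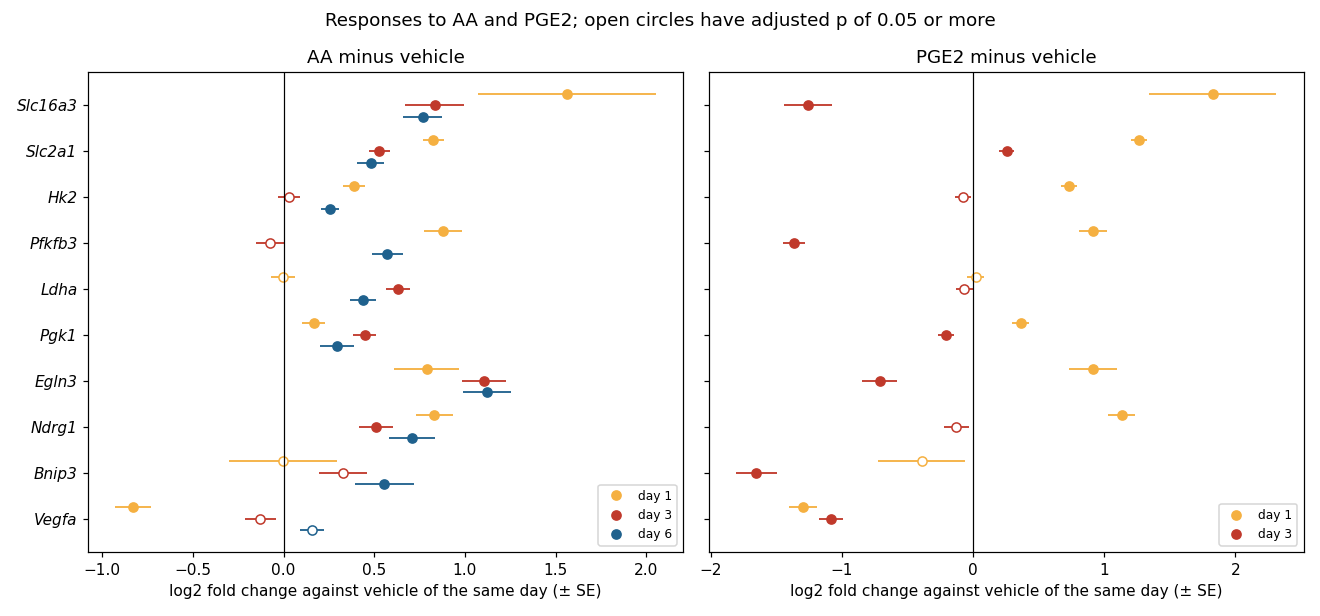
Log2 fold change against vehicle of the same day (± SE) of each gene in AA (left panel; days 1, 3 and 6) and PGE2 (right panel; days 1 and 3), with day 1 in yellow, day 3 in red and day 6 in blue; open circles did not pass the test at an edgeR adjusted p of 0.05. In AA the points for Slc16a3, Slc2a1, Hk2, Pgk1, Egln3 and Ndrg1 lie right of 0 on every day, with that of Hk2 open at day 3. In PGE2 those for Slc16a3, Hk2, Pfkfb3, Ldha, Pgk1, Egln3 and Ndrg1 lie right of 0 at day 1 and left of it at day 3. Of these, Hk2, Ldha and Ndrg1 are open at day 3 in PGE2, and Ldha is also open at day 1.

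Egln3, the oxygen-sensing prolyl hydroxylase, was higher in AA on all 3 days and in PGE2 at day 1, and lower in PGE2 at day 3. At day 1 it had 24.0, 22.6 and 24.7 CPM in AA and 27.7, 25.9 and 24.3 CPM in PGE2, against 12.5, 14.8 and 14.1 CPM in vehicle. Both treatments lay above every vehicle library, with log2 fold change 0.79 ± 0.18 (SE), edgeR adjusted p = 0.00278 in AA and log2 fold change 0.92 ± 0.18 (SE), edgeR adjusted p = 0.000619 in PGE2 (n = 3 each). At day 3 the level was 164, 169.6 and 170.3 CPM in AA and 39.7, 56.3 and 46.5 CPM in PGE2, against 96.2, 70.4 and 66.0 CPM in vehicle. The 3 groups did not overlap, with AA highest and PGE2 lowest. AA was 2.15-fold higher than vehicle (log2 fold change 1.11 ± 0.12 (SE), edgeR adjusted p = 3.74e-06) and PGE2 was 1.64-fold lower (log2 fold change -0.71 ± 0.13 (SE), edgeR adjusted p = 0.00031). At day 6 Egln3 had 151, 107, 148 and 135 CPM in AA, against 59.2, 56.3, 79.9 and 52.3 CPM in vehicle. The lowest AA library still lay above the highest vehicle library (log2 fold change 1.12 ± 0.13 (SE), edgeR adjusted p = 8.5e-05, n = 4 each), and this was the largest of the day 6 responses among the 10 genes.

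Slc2a1, the glucose carrier, was the only member that rose in both treatments on every day measured. Its level at day 1 was 126, 129 and 128 CPM in AA and 178, 173 and 171 CPM in PGE2, against 71.0, 70.1 and 75.5 CPM in vehicle. The groups were separate, with PGE2 highest: the log2 fold change was 1.27 ± 0.06 (SE; edgeR adjusted p = 9.51e-18) in PGE2 and 0.83 ± 0.06 (SE; edgeR adjusted p = 9.48e-13) in AA. At day 3 AA had 177, 198 and 192 CPM and PGE2 had 152, 166 and 151 CPM, against 145, 119 and 128 CPM in vehicle. AA was now the highest group, with a log2 fold change of 0.53 ± 0.06 (SE; edgeR adjusted p = 5.44e-09), and that of PGE2 was 0.26 ± 0.06 (SE; edgeR adjusted p = 0.000265). At day 6 the level was 109.9, 99.1, 112 and 124 CPM in AA, against 75.7, 74.0, 85.0 and 83.9 CPM in vehicle (log2 fold change 0.48 ± 0.07 (SE), edgeR adjusted p = 0.000513).

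Hk2, the hexokinase that phosphorylates incoming glucose, was higher in both treatments at day 1 and in AA at day 6, and passed no test at day 3. At day 1 it averaged 105 ± 1.64 CPM in AA and 133 ± 2.32 CPM in PGE2, against 80.3 ± 2.93 CPM in vehicle (SD, n = 3 each). The log2 fold change was 0.39 ± 0.06 (SE; edgeR adjusted p = 5.97e-06) in AA and 0.73 ± 0.06 (SE; edgeR adjusted p = 1.34e-11) in PGE2. At day 3 the 3 groups overlapped, at 143, 139 and 122 CPM in AA and 121, 133 and 119.9 CPM in PGE2, against 145, 126 and 123 CPM in vehicle. Their log2 fold changes were 0.03 ± 0.06 (SE; edgeR adjusted p = 0.727) and -0.08 ± 0.06 (SE; edgeR adjusted p = 0.265), in that order. At day 6 AA averaged 118 ± 4.4 CPM, against 98.7 ± 2.28 CPM in vehicle (SD, n = 4 each; log2 fold change 0.26 ± 0.05 (SE), edgeR adjusted p = 0.00225).

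Pfkfb3, which makes the activator of phosphofructokinase, rose in both treatments at day 1 and was far lower in PGE2 than in vehicle at day 3. At day 1 it had 23.3, 23.0 and 23.9 CPM in AA and 22.0, 24.2 and 25.9 CPM in PGE2, against 12.6, 13.1 and 12.5 CPM in vehicle. Both treatments lay above vehicle and overlapped each other, with log2 fold changes of 0.88 ± 0.10 (SE; edgeR adjusted p = 6.55e-08) in AA and 0.92 ± 0.11 (SE; edgeR adjusted p = 2.06e-08) in PGE2. At day 3 AA had 56.0, 58.8 and 50.6 CPM and PGE2 had 21.8, 24.3 and 21.1 CPM, against 66.7, 55.8 and 50.0 CPM in vehicle. AA overlapped vehicle (log2 fold change -0.07 ± 0.08 (SE), edgeR adjusted p = 0.49), whereas every PGE2 library lay below every vehicle library, 2.58-fold lower (log2 fold change -1.37 ± 0.09 (SE), edgeR adjusted p = 5.2e-14). At day 6 Pfkfb3 had 49.2, 46.2, 49.4 and 48.7 CPM in AA, against 29.8, 29.0, 39.5 and 31.7 CPM in vehicle, and the groups did not overlap (log2 fold change 0.57 ± 0.09 (SE), edgeR adjusted p = 0.000555).

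Pgk1 and Ldha, enzymes of the lower part of the pathway, were higher in AA at days 3 and 6. Both have near-identical pseudogene copies, so their counts are uncertain to the extent that the authors' counting split reads between copies. Ldha did not pass the test at day 1 (791 ± 20.4 CPM in AA and 804 ± 11.2 CPM in PGE2, against 794 ± 53.6 CPM in vehicle; SD, n = 3 each). At day 3 it had 1700.4, 1769 and 1840.4 CPM in AA and 993, 1163 and 1107 CPM in PGE2, against 1289, 1035 and 1098 CPM in vehicle. AA was above every vehicle library (log2 fold change 0.63 ± 0.07 (SE), edgeR adjusted p = 7.77e-09), and PGE2 overlapped vehicle (log2 fold change -0.07 ± 0.07 (SE), edgeR adjusted p = 0.387). At day 6 Ldha was also higher in AA, with 2285, 2126, 2374 and 2403 CPM, against 1622, 1543, 1883 and 1726 CPM in vehicle (log2 fold change 0.44 ± 0.07 (SE), edgeR adjusted p = 0.000783).

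Pgk1 averaged 299.8 ± 4.08 CPM in AA and 344 ± 6.78 CPM in PGE2 at day 1, against 267 ± 15.5 CPM in vehicle. It was higher in PGE2 (log2 fold change 0.36 ± 0.06 (SE), edgeR adjusted p = 2.71e-05) and, narrowly, in AA (log2 fold change 0.17 ± 0.06 (SE), edgeR adjusted p = 0.0406). The call in AA was lost without any 1 of the 3 AA libraries and without vehicle replicate 1 or 2 (log2 fold changes of 0.13 to 0.17, edgeR adjusted p of 0.0731 to 0.165), and with scaling to total counts alone (0.16, edgeR adjusted p = 0.0551). At day 3 Pgk1 had 578, 569 and 587 CPM in AA and 351, 382 and 368 CPM in PGE2, against 491, 378 and 401 CPM in vehicle. AA lay above vehicle (log2 fold change 0.45 ± 0.06 (SE), edgeR adjusted p = 1.85e-06). PGE2 was lower (log2 fold change -0.21 ± 0.06 (SE), edgeR adjusted p = 0.00692) with groups that overlapped, and this call was lost without vehicle replicate 1 (-0.11, edgeR adjusted p = 0.0958) or when the model held only these groups (-0.19, edgeR adjusted p = 0.0901). At day 6 it had 528, 399, 496 and 466 CPM in AA, against 376, 345, 442 and 376 CPM in vehicle (log2 fold change 0.30 ± 0.09 (SE), edgeR adjusted p = 0.0295). The groups overlapped, and the call was lost without AA replicate 1, 3 or 4 or vehicle replicate 1, 2 or 4 (log2 fold changes of 0.24 to 0.31, edgeR adjusted p of 0.0591 to 0.103).

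Slc16a3, the lactate carrier, had the widest range of levels, as a ratio of highest to lowest, of the 10 genes. At day 1 it had 5.39, 5.27 and 5.18 CPM in AA and 6.1, 6.26 and 6.69 CPM in PGE2, against 2.36, 1.84 and 1.09 CPM in vehicle. Every treated library lay above every vehicle library, on 60 to 80 counts in the treated libraries. The log2 fold change was 1.56 ± 0.49 (SE; edgeR adjusted p = 0.0216) in AA and 1.83 ± 0.49 (SE; edgeR adjusted p = 0.00603) in PGE2. In AA the call was lost without vehicle replicate 2 (1.58, edgeR adjusted p = 0.0522) or 3 (1.32, edgeR adjusted p = 0.0912). At day 3 the level was 143, 154 and 136 CPM in AA and 23.7, 44.6 and 32.2 CPM in PGE2, against 99.6, 71.2 and 70.1 CPM in vehicle. The 3 groups were separate, with AA 1.78-fold higher (log2 fold change 0.83 ± 0.16 (SE), edgeR adjusted p = 0.00101) and PGE2 2.4-fold lower than vehicle (log2 fold change -1.26 ± 0.18 (SE), edgeR adjusted p = 4.57e-05). At day 6 Slc16a3 had 174, 138, 177 and 173 CPM in AA, against 91.0, 84.7, 119.6 and 94.0 CPM in vehicle, again without overlap (log2 fold change 0.77 ± 0.11 (SE), edgeR adjusted p = 0.000283).

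Ndrg1, the stress-responsive gene, rose in both treatments at day 1 and stayed higher in AA. It had 146, 143 and 143 CPM in AA and 177, 171 and 184 CPM in PGE2, against 79.6, 86.8 and 76.0 CPM in vehicle. All treated libraries lay above vehicle, with log2 fold changes of 0.83 ± 0.10 (SE; edgeR adjusted p = 7.09e-06) in AA and 1.13 ± 0.10 (SE; edgeR adjusted p = 8.84e-08) in PGE2. At day 3 it had 378, 405 and 329.6 CPM in AA and 219, 261 and 235 CPM in PGE2, against 305, 244 and 229.9 CPM in vehicle. AA was higher (log2 fold change 0.51 ± 0.09 (SE), edgeR adjusted p = 0.000397), and PGE2 overlapped vehicle (log2 fold change -0.13 ± 0.10 (SE), edgeR adjusted p = 0.269), passing the test only without the filter on low counts (-0.16, edgeR adjusted p = 0.0342). At day 6 AA had 491, 316, 438 and 396 CPM, against 246, 232, 306 and 219 CPM in vehicle (log2 fold change 0.71 ± 0.13 (SE), edgeR adjusted p = 0.00169).

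Bnip3, the mitophagy protein, was low in every group at day 1, on 36 to 74 counts per library, and no treatment passed the test there (4.47 ± 0.778 CPM in AA and 3.42 ± 0.379 CPM in PGE2, against 4.47 ± 0.386 CPM in vehicle; SD, n = 3 each). At day 3 it had 65.6, 68.0 and 61.2 CPM in AA and 12.7, 22.0 and 14.3 CPM in PGE2, against 61.6, 45.6 and 46.9 CPM in vehicle. PGE2 stood far below, 3.15-fold lower (log2 fold change -1.65 ± 0.15 (SE), edgeR adjusted p = 1.56e-07), the largest response of the 10 genes on that day. AA overlapped vehicle only through vehicle replicate 1 (log2 fold change 0.33 ± 0.13 (SE), edgeR adjusted p = 0.061). Without that library Bnip3 passed the test in AA (0.50, edgeR adjusted p = 0.00284), as it did without the filter (0.34, edgeR adjusted p = 0.0407) and in a model of only these groups (0.33, edgeR adjusted p = 0.0269). At day 6 Bnip3 had 97.3, 59.7, 90.4 and 70.9 CPM in AA, against 52.7, 51.2, 71.1 and 41.2 CPM in vehicle (log2 fold change 0.56 ± 0.16 (SE), edgeR adjusted p = 0.0233). The groups overlapped, and the call was lost without AA replicate 1 or 3 or vehicle replicate 1, 2 or 4 (log2 fold changes of 0.44 to 0.54, edgeR adjusted p of 0.0596 to 0.191), and without the filter (0.56, edgeR adjusted p = 0.2).

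Vegfa, the blood vessel growth factor, went the other way at day 1. It had 26.2, 23.2 and 26.3 CPM in AA and 19.6, 19.0 and 16.4 CPM in PGE2, against 43.4, 47.3 and 44.1 CPM in vehicle. Every treated library lay below vehicle, 1.78-fold lower in AA (log2 fold change -0.83 ± 0.10 (SE), edgeR adjusted p = 4.24e-07) and 2.45-fold lower in PGE2 (log2 fold change -1.29 ± 0.11 (SE), edgeR adjusted p = 5.35e-10). At day 3 it had 79.5, 78.2 and 59.4 CPM in AA and 34.8, 39.9 and 36.9 CPM in PGE2, against 83.3, 80.5 and 72.7 CPM in vehicle. PGE2 was lower (log2 fold change -1.09 ± 0.09 (SE), edgeR adjusted p = 5.42e-10), while AA overlapped vehicle (log2 fold change -0.13 ± 0.08 (SE), edgeR adjusted p = 0.239). At day 6 AA had 163, 135, 152 and 146 CPM, against 125, 133, 139 and 137 CPM in vehicle (log2 fold change 0.16 ± 0.06 (SE), edgeR adjusted p = 0.0837). The groups overlapped, and Vegfa passed the test only without AA replicate 2 (0.20, edgeR adjusted p = 0.0369) or without vehicle replicate 4 (0.17, edgeR adjusted p = 0.0391).

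AA and PGE2 were then set against each other at their differing doses. These comparisons give no weight to the vehicle libraries, although at both days they entered the scaling, the filter and the estimate of spread. The genes were also picked with earlier results of the series known. At day 1 AA was lower than PGE2 for Slc2a1 (log2 fold change -0.44 ± 0.06 (SE; edgeR adjusted p = 2.83e-07)), Hk2 (-0.34 ± 0.06 (SE; edgeR adjusted p = 3.94e-05)), Ndrg1 (-0.30 ± 0.10 (SE; edgeR adjusted p = 0.0326)) and Pgk1 (-0.20 ± 0.06 (SE; edgeR adjusted p = 0.0225)), and higher for Vegfa (0.46 ± 0.11 (SE; edgeR adjusted p = 0.00362)). That is 1 of 10 higher and 4 lower, while 11.3% of all genes tested were higher and 16.5% lower. The Ndrg1 call was lost without any 1 of the 6 libraries (log2 fold changes of -0.31 to -0.27, edgeR adjusted p of 0.0648 to 0.0996). The Pgk1 call was lost without AA replicate 1 or 2 or PGE2 replicate 1 or 2 (log2 fold changes of -0.19 to -0.18, edgeR adjusted p of 0.0654 to 0.102), and without mitochondrial and rRNA-like genes (-0.18, edgeR adjusted p = 0.0549). Scaling to total counts alone left 3 of the 5 calls, and it turned the split over all genes to 2570 higher and 1746 lower, beside 1671 and 2448. At day 3, 9 of 10 genes were higher in AA than in PGE2 and none was lower, while 18.1% of all genes were higher and 20.3% lower. Slc16a3 was 4.28-fold higher (log2 fold change 2.10 ± 0.18 (SE), edgeR adjusted p = 6.29e-07), Bnip3 3.94-fold higher (log2 fold change 1.98 ± 0.15 (SE), edgeR adjusted p = 4.54e-08) and Egln3 3.53-fold higher (log2 fold change 1.82 ± 0.13 (SE), edgeR adjusted p = 4e-08). Pfkfb3 was 2.45-fold higher (log2 fold change 1.30 ± 0.09 (SE), edgeR adjusted p = 1.35e-12). Vegfa, Ldha, Pgk1 and Ndrg1 had log2 fold changes between 0.64 and 0.96, and Slc2a1 had 0.27 ± 0.06 (SE; edgeR adjusted p = 0.00023). Hk2 was the exception (log2 fold change 0.11 ± 0.06 (SE), edgeR adjusted p = 0.158). It passed the test without AA replicate 3 (0.21, edgeR adjusted p = 0.00449), without PGE2 replicate 2 (0.19, edgeR adjusted p = 0.0291) or without the filter on low counts (0.15, edgeR adjusted p = 0.0315).

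Between day 1 and day 3, the AA libraries gained in all 10 genes and the PGE2 libraries gained in 6. In AA, 10 of 10 were higher at day 3, with a median log2 fold change of 1.30 against 0.01 over all genes tested, while 19.2% of all genes were higher and 17.3% lower. The genes were picked with the change of vehicle over the same days known, and its median was 1.27. Nothing is therefore read from the number of genes that gained with time within a treatment. Slc16a3 reached 144 ± 9.37 CPM at day 3, against 5.28 ± 0.104 CPM at day 1 (log2 fold change 4.77 ± 0.23 (SE), edgeR adjusted p = 2.98e-09), a ratio of means of 27.3. The ratio was 14.5 for Bnip3 (log2 fold change 3.86 ± 0.19 (SE), edgeR adjusted p = 2.52e-10) and 7.07 for Egln3 (log2 fold change 2.82 ± 0.14 (SE), edgeR adjusted p = 8.97e-10). Vegfa had a log2 fold change of 1.51 ± 0.09 (SE; edgeR adjusted p = 2.84e-11), Ndrg1 1.37 ± 0.10 (SE; edgeR adjusted p = 1.65e-08), Pfkfb3 1.24 ± 0.09 (SE; edgeR adjusted p = 4.04e-12) and Ldha 1.16 ± 0.07 (SE; edgeR adjusted p = 1.55e-13). Pgk1 gained 0.95, Slc2a1 0.56 and Hk2 0.36 on that scale, and all 3 passed the test. In PGE2, 6 of 10 were higher and 1 was lower, with a median of 0.43 against 0.03 over all genes tested, while 24.5% of all genes were higher and 23% lower. Slc16a3 reached 33.5 ± 10.5 CPM in PGE2 at day 3, against 6.35 ± 0.306 CPM at day 1 (log2 fold change 2.41 ± 0.27 (SE), edgeR adjusted p = 7.48e-06), a ratio of 5.27. Bnip3 had a ratio of 4.78 (log2 fold change 2.27 ± 0.25 (SE), edgeR adjusted p = 2.2e-06) and Egln3 of 1.83 (log2 fold change 0.87 ± 0.15 (SE), edgeR adjusted p = 0.000261). Vegfa (1.02), Ldha (0.44) and Ndrg1 (0.43) also rose on the log2 scale. Pfkfb3 had 21.8, 24.3 and 21.1 CPM at day 3, against 22.0, 24.2 and 25.9 CPM at day 1, and the groups overlapped (log2 fold change -0.10 ± 0.10 (SE), edgeR adjusted p = 0.439). Slc2a1 was lower (log2 fold change -0.15 ± 0.06 (SE), edgeR adjusted p = 0.0248), a call lost without PGE2 replicate 1 of day 1 or PGE2 replicate 1 or 3 of day 3 (log2 fold changes of -0.14 to -0.13, edgeR adjusted p of 0.0888 to 0.11). Scaling to total counts alone moved the median of all genes by 0.12 in this comparison, and with it Slc2a1 did not pass (-0.03, edgeR adjusted p = 0.662) while Pgk1 did (0.21, edgeR adjusted p = 0.00697, beside 0.10 ± 0.06 (SE; edgeR adjusted p = 0.237) as reported). The split over all genes under that scaling was 5124 higher and 2107 lower, beside 3638 and 3415. Hk2 (log2 fold change -0.09 ± 0.06 (SE), edgeR adjusted p = 0.21) was lower in a model of only these groups (-0.11, edgeR adjusted p = 0.0123) and without the filter on low counts (-0.15, edgeR adjusted p = 0.0237). Pgk1 was higher in the model of only these groups (0.08, edgeR adjusted p = 0.00959).

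**Figure D3:**
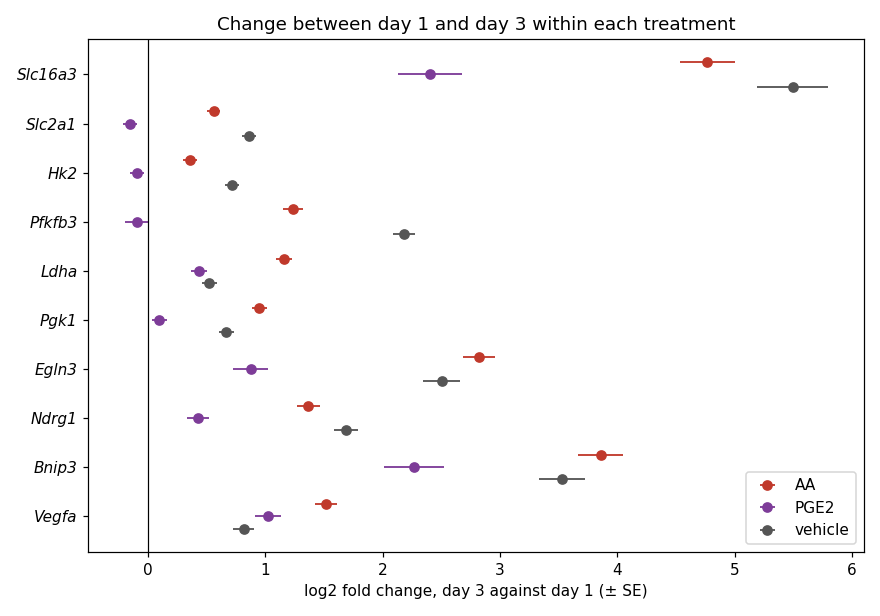
Log2 fold change of day 3 against day 1 (± SE) for each gene in AA (red), PGE2 (purple) and vehicle (grey); the vehicle values chose the genes and are shown as a description. For Slc16a3 the points stand at 4.77 in AA and 2.41 in PGE2, beside 5.49 in vehicle, and the AA point lies right of the PGE2 point for all 10 genes.

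The difference between the time changes of AA and PGE2 was tested in 1 model. It gives no weight to the vehicle libraries, although they entered the scaling, the filter and the estimate of spread. All 10 genes gained more in AA than in PGE2, while 5.19% of all genes tested did so and 4.73% gained less. The genes were picked with earlier results of the series known, so nothing is read from that count. The median difference of the 10 on the log2 scale was 0.90 against 0.00 over all genes tested. It was 2.36 ± 0.43 (SE; edgeR adjusted p = 0.0034) for Slc16a3, 1.95 ± 0.21 (SE; edgeR adjusted p = 3.1e-05) for Egln3, 1.59 ± 0.38 (SE; edgeR adjusted p = 0.0138) for Bnip3 and 1.33 ± 0.13 (SE; edgeR adjusted p = 3e-08) for Pfkfb3. Ndrg1, Pgk1, Ldha and Slc2a1 differed by 0.94, 0.85, 0.73 and 0.71, and Hk2 by 0.45 ± 0.08 (SE; edgeR adjusted p = 0.000445). Vegfa had the smallest margin to the threshold (0.49 ± 0.15 (SE; edgeR adjusted p = 0.036)), and its call was lost without AA replicate 1 or 2 of either day, without PGE2 replicate 1 or 2 of day 1 or 1 or 3 of day 3 (log2 fold changes of 0.41 to 0.52, edgeR adjusted p of 0.0541 to 0.126), and in a model of only these groups (0.50, edgeR adjusted p = 0.0625). The Bnip3 call was lost without PGE2 replicate 1 of day 1 (1.56, edgeR adjusted p = 0.0589) or 2 (1.55, edgeR adjusted p = 0.0545). Scaling to total counts alone moved the median of all genes by -0.11 and gave 314 higher and 1331 lower genes, beside 770 and 703. Under it Vegfa was lost (0.39, edgeR adjusted p = 0.147) and the other 9 members passed.

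The rest of the glycolytic pathway, a list of 24 further enzymes (Aldoa could not be tested, since its name matched several identifiers) of which 19 passed the filter at days 1 and 3 and 18 at day 6, was mostly higher in AA at days 3 and 6 and mixed elsewhere. In AA 6 of 19 rose and 5 fell at day 1, 14 of 19 rose and 2 fell at day 3 and 13 of 18 rose and 1 fell at day 6. In PGE2 8 of 19 rose and 6 fell at day 1 and 6 of 19 rose and 8 fell at day 3. Over all genes tested, the shares that rose and fell were 19.5% and 22.2% in AA at day 1, 21.2% and 20.1% at day 3 and 15.3% and 15.5% at day 6, and 27% and 28.9% in PGE2 at day 1 and 28.9% and 30.1% at day 3. The median log2 fold change of the list in AA was -0.03 against -0.03 over all genes tested at day 1, 0.39 against -0.03 over all genes tested at day 3 and 0.42 against -0.01 over all genes tested at day 6, and in PGE2 it was -0.13 against -0.02 over all genes tested at day 1 and -0.05 against -0.04 over all genes tested at day 3. Hk1, the broadly expressed hexokinase, had the smallest adjusted p of the list in every comparison with vehicle. It averaged 36.9 ± 1.25 CPM in AA and 70.6 ± 5.14 CPM in PGE2 at day 1, against 14.4 ± 1.49 CPM in vehicle (SD, n = 3 each), with a log2 fold change of 1.36 ± 0.09 (SE; edgeR adjusted p = 6e-14) in AA and 2.30 ± 0.08 (SE; edgeR adjusted p = 1.37e-20) in PGE2. At day 3 its log2 fold change was 1.33 ± 0.08 (SE; edgeR adjusted p = 1.39e-14) in AA and 1.96 ± 0.07 (SE; edgeR adjusted p = 8.38e-20) in PGE2, so that Hk1 was higher in PGE2 on the day when Pfkfb3 and Slc16a3 were lower. Pklr, a pyruvate kinase, also rose in AA and PGE2 on every day measured, by 0.40 to 0.99. Gpi1, which converts glucose-6-phosphate to fructose-6-phosphate, fell in PGE2 at day 3 (log2 fold change -0.53 ± 0.06 (SE), edgeR adjusted p = 5.86e-09), as did the phosphofructokinase subunit Pfkl (log2 fold change -0.48 ± 0.07 (SE), edgeR adjusted p = 9.34e-07). Between day 1 and day 3, 16 of 19 rose and none fell in AA, and 14 rose and 1 fell in PGE2, while all genes rose and fell at 19.2% and 17.3% in AA and 24.5% and 23% in PGE2. For 10 of the 19 the gain was larger in AA than in PGE2 and for none smaller, against 5.19% and 4.73% of all genes, with Gpi1 (0.83 ± 0.08 (SE; edgeR adjusted p = 4.25e-08)) and Eno1 (0.87 ± 0.09 (SE; edgeR adjusted p = 2.08e-07)), an enolase with pseudogene copies, at the front.

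A list of 33 other hypoxia-responsive genes, 29 of them tested, had more genes higher in AA and more genes lower in PGE2 at day 3. In AA 6 of 29 rose and 10 fell at day 1, 15 of 29 rose and 4 fell at day 3 and 17 of 29 rose and 3 fell at day 6. In PGE2 11 of 29 rose and 11 fell at day 1 and 5 of 29 rose and 17 fell at day 3. At day 1 all genes rose and fell at 19.5% and 22.2% in AA and 27% and 28.9% in PGE2. The share of the list that rose in AA on that day was about that of all genes, and the share that fell was larger. At day 3 all genes rose and fell at 21.2% and 20.1% in AA and 28.9% and 30.1% in PGE2, and at day 6 at 15.3% and 15.5% in AA. Their median log2 fold change at day 3 was 0.27 against -0.03 over all genes tested in AA, and -0.21 against -0.04 over all genes tested in PGE2; at day 6 in AA it was 0.35 against -0.01 over all genes tested. Set against PGE2, AA was higher for 21 of 29 and lower for 1 at day 3 (18.1% and 20.3% of all genes). The gain between the days was larger in AA than in PGE2 for 20 of 29 and smaller for 2 (5.19% and 4.73% of all genes), with a median difference of 0.53 against 0.00 over all genes tested. Ankrd37, an ankyrin-repeat protein, rose in AA at day 6, with 35.5 ± 5.59 CPM against 15.9 ± 3.0 CPM in vehicle (SD, n = 4 each; log2 fold change 1.16 ± 0.13 (SE), edgeR adjusted p = 8.22e-05). Stc2, a secreted stanniocalcin, was lower in both treatments throughout: it averaged 31.1 ± 1.87 CPM in AA and 8.24 ± 1.8 CPM in PGE2 at day 3, against 51.8 ± 4.65 CPM in vehicle, with log2 fold changes of -0.74 ± 0.08 (SE; edgeR adjusted p = 1.24e-08) and -2.66 ± 0.10 (SE; edgeR adjusted p = 7.16e-20), in that order.

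**Figure D4:**
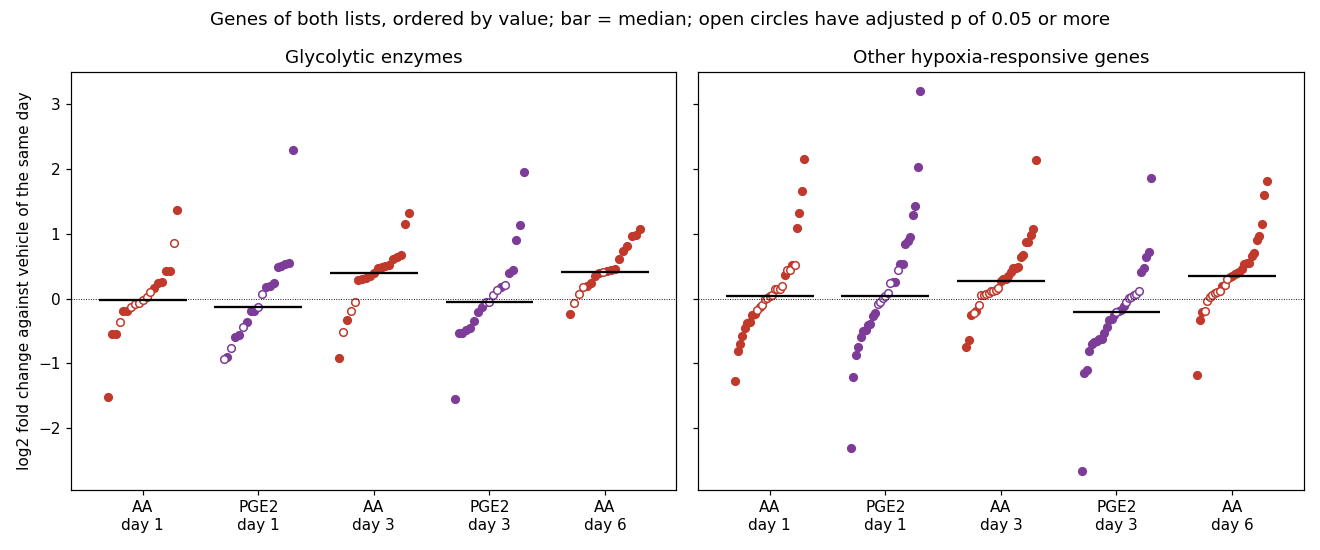
Log2 fold change against vehicle of the same day for each tested gene of the list of glycolytic enzymes (left) and the list of other hypoxia-responsive genes (right), ordered by value within each comparison; AA is red, PGE2 is purple, bars are medians, and open circles did not pass the test. The medians at day 3 are 0.39 in AA and -0.05 in PGE2 on the left, and 0.27 in AA and -0.21 in PGE2 on the right.

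Among 11 genes for HIF subunits and their oxygen-sensing regulators, all tested, 3 to 5 changed in each comparison with vehicle. In AA 2 of 11 rose and 3 fell at day 1, 1 of 11 rose and 2 fell at day 3 and 4 of 11 rose and 1 fell at day 6, and in PGE2 2 of 11 rose and 3 fell at day 1 and 3 of 11 rose and 2 fell at day 3. All genes rose and fell at 19.5% and 22.2% in AA at day 1, 21.2% and 20.1% at day 3 and 15.3% and 15.5% at day 6, and at 27% and 28.9% in PGE2 at day 1 and 28.9% and 30.1% at day 3. Epas1 (HIF-2 alpha) rose in both treatments at day 3 and averaged 22.4 ± 2.18 CPM in AA and 49.8 ± 0.49 CPM in PGE2 at day 3, against 14.0 ± 1.34 CPM in vehicle, with log2 fold changes of 0.68 ± 0.10 (SE; edgeR adjusted p = 1.94e-06) and 1.83 ± 0.09 (SE; edgeR adjusted p = 3.41e-17), in that order. Hif1a (HIF-1 alpha), which is controlled largely through the stability of its protein, was higher in PGE2 at day 3 (log2 fold change 0.39 ± 0.05 (SE), edgeR adjusted p = 7.26e-08). Egln1, the main oxygen-sensing hydroxylase and like Egln3 a known HIF target, averaged 75.6 ± 2.72 CPM in AA and 38.5 ± 2.69 CPM in PGE2 at day 3, against 68.8 ± 7.9 CPM in vehicle. It was lower in PGE2 than in vehicle (log2 fold change -0.84 ± 0.07 (SE), edgeR adjusted p = 3.13e-12) and gained more between the days in AA than in PGE2 (0.85 ± 0.10 (SE; edgeR adjusted p = 3.26e-07)).

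Within the set, the members did not share 1 pattern. Over the 6 group means of days 1 and 3 on the log2 CPM scale, the correlation with Slc16a3 was 0.979 for Egln3, 0.959 for Ndrg1, 0.947 for Bnip3 and 0.939 for Pgk1. It was 0.911 for Ldha, 0.908 for Pfkfb3 and 0.780 for Hk2, and lowest for Slc2a1 and Vegfa, both at 0.669. Slc2a1 and Vegfa themselves stood at -0.086, with Slc2a1 highest where Vegfa was low at day 1. These values describe 6 points that share libraries and the vehicle change that chose the genes, and carry no test. Among 10800 genes outside the set whose log2 CPM averaged 1 or more, the 5 most like Slc16a3 over the same 6 means were Ak4 (0.996), P4ha1 (0.987), Ankrd37 (0.985), Mapkapk2 (0.985) and Mab21l3 (0.984). Ak4, a mitochondrial adenylate kinase, averaged 95.0 ± 8.35 CPM in AA and 39.5 ± 6.62 CPM in PGE2 at day 3, against 56.9 ± 13.9 CPM in vehicle. P4ha1, a collagen prolyl hydroxylase, averaged 34.3 ± 2.4 CPM in AA and 14.6 ± 3.47 CPM in PGE2 at day 3, against 31.4 ± 5.04 CPM in vehicle. Mapkapk2, a stress-activated kinase, matched in order although its means spanned only 76.4 to 91.5 CPM.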

How the data were processed

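Raw read counts per gene were deposited by the authors in a table of 18 libraries (days 1 and 3) and another of 8 libraries (day 6). Per the labels' protocols, RNA came from a Trizol extraction, and the NEBNext Ultra II Directional kit was used. The submitters' processing notes name cutadapt, STAR, DESeq2 and limma 3.46, without roles, and a human build, GRCh38.p6, although the identifiers are mouse; for the counting tool, strand setting and annotation, the sources used here give nothing. Of 55385 identifiers, 55144 (99.6%) matched a gene name. All 26 columns matched a sample by name.

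Each table was fitted by itself with edgeR 4.0.16 (R 4.3.3): TMM scaling, filterByExpr, 1 mean per group, and the robust quasi-likelihood test, with Benjamini-Hochberg adjustment over the 14850 or 14663 genes tested and a threshold of 0.05. The fits left 12 and 6 residual degrees of freedom. CPM are TMM-scaled, and SEs were computed from the log2 fold change and the F statistic. Levels of day 6 are shown beside those of days 1 and 3 but never tested against them; mitochondrial rRNA took 6.74% to 10.3% of the counts at days 1 and 3 and 0.00305% to 0.266% at day 6. The fit was tested on simulated counts with known changes. No replicate pair was identical (chi-square per degree of freedom 1.21 to 22.7 over 30 pairs).

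The members and all 13 gene lists were chosen with earlier results of these data known. Beside the members, the text names from each list, in a comparison described, up to 2 genes in each direction with the smallest p among those past the threshold, and the 5 genes most like Slc16a3. A result that this rule would name is not reported here. Aldoa was left out of the tested lists because its name matched several identifiers. Alternatives were RLE factors, total counts, no filter, DESeq2 1.42.0, a replicate block, only the groups compared, mitochondrial and rRNA-like genes left out, and each replicate left out in turn.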

Additional observations from a re-analysis of the deposited data

Results flagged for a closer look

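Slc16a3 in AA replicate 2 at day 6 had 138 CPM, while the other 3 AA libraries had 173 to 177 CPM. The gap was 0.912 of the range of the group. The 10 genes were checked in the AA and vehicle groups of day 6, 20 checks in all, and this was the only 1 so far apart. Chance gives about 1 in 20, but the checks share the same 8 libraries and are not independent. Nothing is therefore read from that rate. The same library was the lowest of its group for all 10 genes.

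The change between day 1 and day 3 differed between AA and PGE2, by the test of that difference, for all 10 genes. On the log2 scale, AA minus PGE2, it was 2.36 for Slc16a3, 1.95 for Egln3, 1.59 for Bnip3, 1.33 for Pfkfb3, 0.94 for Ndrg1, 0.85 for Pgk1, 0.73 for Ldha, 0.71 for Slc2a1, 0.49 for Vegfa and 0.45 for Hk2. Over all genes tested, 5.19% gained more in AA and 4.73% gained less. The genes were picked with earlier results of the series known, so nothing is read from the number that passed. With single libraries left out, 8 to 10 members passed, and the calls of Vegfa and Bnip3 were the ones lost. Summed endothelial markers, at day 3 mostly Tek, stood at 34.7 to 39.2 CPM in PGE2 and 6.62 to 7.58 CPM in AA on that day. At day 1 they stood at 9.62 to 11.1 CPM in PGE2 and 2.11 to 2.49 CPM in AA. Their part in the difference between AA and PGE2 was not tested.

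In PGE2 every library of Slc16a3, Pfkfb3 and Egln3 lay above vehicle at day 1 and below it at day 3. The log2 response of day 3 minus that of day 1 was -3.09 for Slc16a3, -2.28 for Pfkfb3 and -1.63 for Egln3; this difference was not tested, because it holds the vehicle change on which the genes were chosen.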

How the results depend on the processing

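For the 10 genes, 100 results were recomputed in 1370 combinations of result and setting. Of these, 1306 kept their side of the threshold, 51 lost the call, 13 gained it, and no called result reversed its direction. Results that were not called could change sign. Pfkfb3 in AA against vehicle at day 3 was -0.07 as reported and ran from -0.14 to 0.07. For 330 called results of list genes in 4413 such combinations, 4159 kept direction and side of the threshold, 254 lost the call and none reversed. These results were picked for the smallest p among the called ones in these same data. Their stability is thus partly set by that choice and does not describe all called list genes. The number of members called in AA against PGE2 at day 1 fell to 3 with total counts alone, beside 5 as reported, and was 3 to 4 with single libraries left out; 9 of the 10 counts of called members moved by less than 1.5 times under every setting. The median vehicle change of the members ran between 1.17 and 1.32 with single libraries left out. The calls of all genes at day 6 ran between 3214 and 4873, and those of the difference in time change between 1079 and 1549. Counts of 14 to 33 for Slc16a3 in vehicle at day 1 limit the precision of its ratios. The causes of lost calls were not tested.

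Whether the replicate numbers of the labels pair the samples was not settled. Same-numbered libraries correlated between -0.0831 and 0.156 at days 1 and 3 (3 of 45 pairs above 0.1). At day 6 they correlated between -0.0665 and 0.136 (1 of 4 above 0.1). Of the libraries, 8 of 18 and 3 of 8 correlated best with their own number. With the replicate block, the members called in each comparison stayed at 8, 8, 6, 7, 9, 5, 9, 10, 7 and 10, in the order AA and PGE2 against vehicle at day 1, the same at day 3, AA at day 6, AA against PGE2 at days 1 and 3, the time changes of AA and PGE2, and their difference. In the same order, the calls over all genes with the block were 6333, 8394, 6257, 8837, 4545, 4272, 5825, 5560, 7155 and 1609. Without the block they were 6197, 8306, 6129, 8752, 4507, 4119, 5711, 5420, 7053 and 1473. The calls were thus more numerous in every comparison with the block. The median vehicle change was 1.27 with and without it.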

Other observations

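A list of 13 genes around the conversion of pyruvate to acetyl-CoA holds the mitochondrial pyruvate carrier, subunits of pyruvate dehydrogenase, kinases that inhibit it and phosphatases that activate it, so its members have opposing roles. At day 1 2 of 13 rose and 11 fell in AA and 1 of 13 rose and 11 fell in PGE2, while of all genes 19.5% rose and 22.2% fell in AA, and 27% rose and 28.9% fell in PGE2. At day 3 3 of 13 rose and 4 fell in AA, close to the 21.2% and 20.1% of all genes, and 2 of 13 rose and 10 fell in PGE2 (28.9% and 30.1%). At day 6 2 of 13 rose and 1 fell in AA (15.3% and 15.5%). The median log2 fold change was -0.24 against -0.03 over all genes tested in AA and -0.50 against -0.02 over all genes tested in PGE2 at day 1, and -0.02 against -0.03 over all genes tested in AA and -0.23 against -0.04 over all genes tested in PGE2 at day 3. Pdk1, a kinase that switches pyruvate dehydrogenase off and a known HIF target, averaged 169 ± 7.19 CPM in AA and 67.9 ± 10.7 CPM in PGE2 at day 3, against 173 ± 19.4 CPM in vehicle. It was lower in PGE2 at day 1 (log2 fold change -1.73 ± 0.11 (SE; edgeR adjusted p = 2.94e-11)) and at day 3 (-1.35 ± 0.09 (SE; edgeR adjusted p = 6.43e-11)), and higher in AA than in PGE2 at day 3 (1.32 ± 0.09 (SE; edgeR adjusted p = 4.17e-10)). Pdp1, a phosphatase that switches the enzyme on, was higher in AA at day 1 (0.71 ± 0.09 (SE; edgeR adjusted p = 2.83e-07)) and in PGE2 (1.18 ± 0.09 (SE; edgeR adjusted p = 1.82e-12)).

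Of 12 further sugar and lactate carriers, 8 were tested at days 1 and 3 and 7 at day 6: 6 of 8 rose and 1 fell in AA and 3 of 8 rose and 3 fell in PGE2 at day 3, and 3 of 7 rose and 1 fell in AA at day 6. All genes rose and fell at 21.2% and 20.1% in AA and 28.9% and 30.1% in PGE2 at day 3, near the carriers' shares in PGE2, and at 15.3% and 15.5% in AA at day 6. Slc5a1, the sodium-glucose carrier of enterocytes, was higher in AA at day 6 (1.09 ± 0.08 (SE; edgeR adjusted p = 3.22e-06)), as was Slc2a5, the fructose carrier (1.04 ± 0.18 (SE; edgeR adjusted p = 0.00176)). Of 7 genes of gluconeogenesis, Pcx, which makes oxaloacetate from pyruvate, rose at day 3 in AA (1.02 ± 0.09 (SE; edgeR adjusted p = 8.3e-11)) and in PGE2 (1.51 ± 0.08 (SE; edgeR adjusted p = 1.08e-15)). Pck2, the mitochondrial phosphoenolpyruvate carboxykinase, was lower in AA at day 3 (-0.91 ± 0.06 (SE; edgeR adjusted p = 1.26e-13)) and in PGE2 (-1.63 ± 0.06 (SE; edgeR adjusted p = 7.37e-20)). Among relatives of Ndrg1, Ndrg4 was higher at day 1 in AA (2.95 ± 0.75 (SE; edgeR adjusted p = 0.00199)) and in PGE2 (3.32 ± 0.73 (SE; edgeR adjusted p = 0.000271)). The SEs of Ndrg4 are wide, and its levels are not given here. Of 5 tested relatives of Ndrg1 and Bnip3, 2 rose and 1 fell in each treatment on that day. The shares of all genes were 19.5% and 22.2% in AA and 27% and 28.9% in PGE2. Vegfb, a relative of Vegfa, was likewise lower at day 1 in AA (-1.06 ± 0.14 (SE; edgeR adjusted p = 2.14e-07)) and in PGE2 (-1.46 ± 0.15 (SE; edgeR adjusted p = 1.22e-09)). Of 5 relatives and receptors of Vegfa tested at day 1, 0 rose and 1 fell in AA, and 2 rose and 2 fell in PGE2. All genes rose and fell at 19.5% and 22.2% in AA and 27% and 28.9% in PGE2 on that day. With so few genes these counts cannot be told apart from those shares, and nothing is read from them.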
